A study of Mus musculus with 4 samples.

Results

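Huwe1 encodes a very large ubiquitin ligase of the HECT family, and its messenger RNA held 161 of the 30763 peaks where the RNA helicase eIF4A3 was mapped in mouse embryonic stem cells. The members are the peaks on the plus strand of chromosome X that lie between positions 148237000 and 148371000 of the mouse genome build mm9, the span of the gene. The gene itself was selected on its number of peaks in the same list, so that number is a description and is not tested. The data come from enhanced crosslinking and immunoprecipitation (eCLIP), in which ultraviolet light ties proteins to the RNA they touch, an antibody pulls the protein down, and the attached RNA fragments are sequenced beside an input that skips the pull-down. The study used J1, an embryonic stem cell line of the 129S4/SvJae strain, grown feeder-free with serum and leukemia inhibitory factor and irradiated with 400 mJ/cm2 at 254 nm. Of the 4 libraries, 2 were input made without antibody and 2 came from the eIF4A3 pull-down, described as biological replicates. They all come from the same cell line with no knockdown or other treatment, and the series-wide peak list holds no expression values with which to check the cell type.

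HECT ligases carry ubiquitin on a cysteine of their own before passing it to a target protein, and the HECT domain of Huwe1 sits at its C-terminal end. Huwe1 is known to ubiquitinate proteins that control growth and survival, among them N-Myc, Mcl1 and p53. eIF4A3 is the helicase that locks the exon junction complex onto RNA, and this complex is what the spliceosome leaves on messenger RNA a short, nearly fixed distance upstream of each exon junction. Later steps of export, translation and nonsense-mediated decay read this mark. A gene with many exons therefore offers many places where the complex can be deposited, and the last exon, which ends in no junction, offers none of that kind.

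Each peak carries 1 log2 fold change and 1 −log10 p from the authors' deposited list, with no value per library, so the values below come without replicate error, and the reads behind them cannot be counted. Which groups the fold change compares, and which test gave the p, is not stated in the sources used here. The members ran from 148237938 to 148367101, a span of 129164 nt, and no peak of the minus strand lay in the range of the gene. The nearest plus-strand peaks outside it were far off, 233 kb before the first member and 84 kb after the last. Members had fold changes from 4.03 to 18.96 with a median of 6.25, and the whole list ran up to 75.6 with a median of 6.57. Their −log10 p had a median of 20.3 and was at least 8.52, and the median over the whole list was 10.4. Member peaks were narrow, with a median width of 23 nt and a maximum of 82 nt, beside a median of 32 nt in the list.

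The exon model of the gene placed every member inside an exon. GENCODE M21 describes the build GRCm38, so the 83 exons of the coding transcript Huwe1-201 were laid over the peaks by a single constant shift. The shift that put the most peak bases into exons was 3565457 nt, and at that shift 4213 of 4215 peak bases (99.95%) were exonic. The 2 remaining bases were the first bases of a peak at exon 40 and of a peak at exon 65, each 1 nt before the exon. A shift 1 nt lower placed 99.4% of the bases in exons and a shift 1 nt higher placed 99.7%. Over shifts more than 1000 nt away, up to 50000 nt on either side, the median share was 10.3% and the highest 26.3%, while exons make up 11.0% of the transcript's 132091 nt span. All 161 peaks overlapped exactly 1 exon and 0 lay in introns. The shift was fitted on the same peaks, so this share describes the fit. It also sets the precision: a position within an exon may be off by about 1 nt, and the list does not say whether its positions count from 0 or from 1.

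Peaks were spread over nearly the whole transcript. Of the 83 exons, 66 held at least 1 peak (79.5%), and 4213 of the 14579 exon bases (28.9%) lay inside a peak. The exons with a peak held from 1 to 6: 20 exons held 1 peak, 17 held 2, 18 held 3, 5 held 4, 3 held 5 and 3 held 6. The longest unbroken run of exons with peaks had 14 members, from exon 37 to exon 50. Exons 1, 6 and 61 held 6 peaks each, and exons 39, 55 and 69 held 5 each. In exon 6, of 153 nt, the peaks covered 131 nt (85.6%). Exon 45, of 67 nt, was covered almost from end to end by a single peak of 66 nt, from 148331730 to 148331795, with a fold change of 6.52 and a −log10 p of 46.6.

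**Figure D1:**
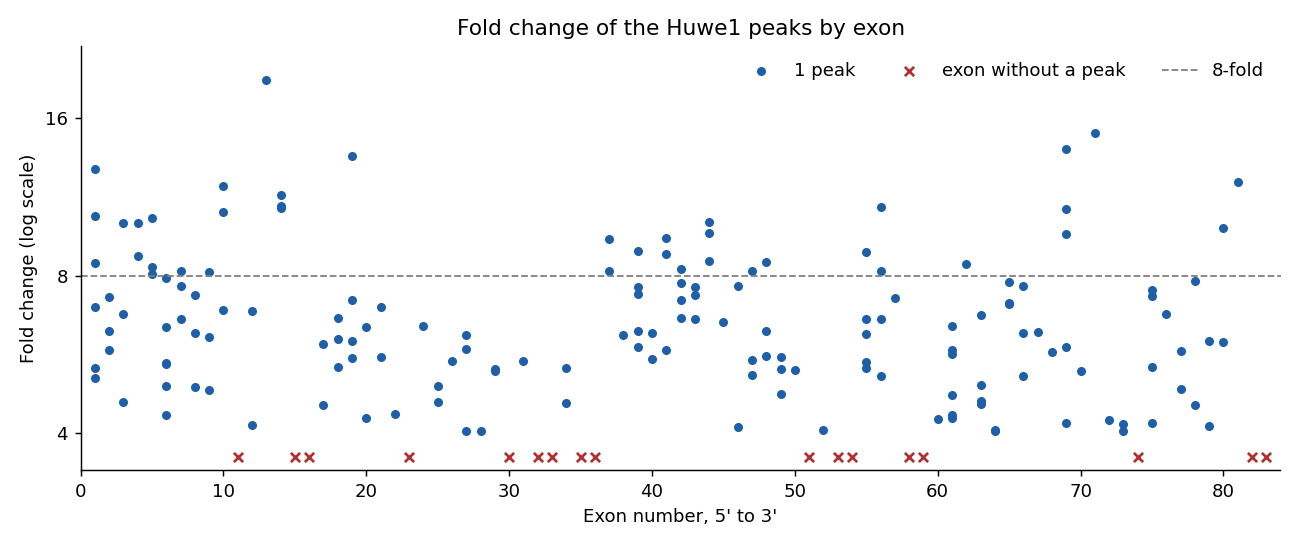
Fold change of each of the 161 Huwe1 peaks (points, log axis) against the number of the exon that holds it, from 5' to 3'; crosses mark the 17 exons without a peak and the dashed line marks 8-fold. Peaks above the line gather in the first exons, in exons 37 to 48 and in a few exons farther on, and the highest, in exon 13, is 18.96-fold.

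The 17 exons without a listed peak were numbers 11, 15, 16, 23, 30, 32, 33, 35, 36, 51, 53, 54, 58, 59, 74, 82 and 83. Several were neighbours, such as exons 15 and 16, 32 and 33, 35 and 36, 53 and 54, 58 and 59, and the last pair. Exon length set them little apart: the median was 141 nt in exons without a peak and 150 nt in exons with a peak, and the ranges, 46 to 1137 nt and 48 to 610 nt, overlapped. The intron that follows had a median of 1217 nt after exons without a peak and 619 nt after exons with a peak. The intron before had medians of 587 and 727 nt in the same order. Covered bases of an exon were nearly unrelated to either length, with a Spearman rho of -0.11 for the intron after and 0.11 for the intron before. Across the 83 exons, exon length had a Spearman rho of 0.29 with covered bases, 0.12 with the number of peaks and -0.16 with the covered share of the exon, as a description over exons that share the same libraries. Because the list holds only peaks that passed the authors' limits, an exon without a listed peak may still be bound.

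The 3' end of the transcript carried no peak. The last peak in transcript order covers the first 10 nt of exon 81, from 148367092 to 148367101, with a fold change of 12.1. After it come 1500 nt of messenger RNA, 10.3% of the transcript, with none. This stretch includes all 191 nt of exon 82 and all 1137 nt of the last exon, of which 100 nt are coding and 1037 nt follow the stop codon. Exons 82 and 83 encode the very end of the protein, within its HECT domain. The 81 internal exons had 30.6% of their 13199 bases inside peaks, and 65 of them held a peak. All are shorter than the last exon, and the longest of them, exons 67 and 66, had 4.92 and 13.0% covered. The last exon is a single exon of a single gene, so the values stand side by side with no test.

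**Figure D2:**
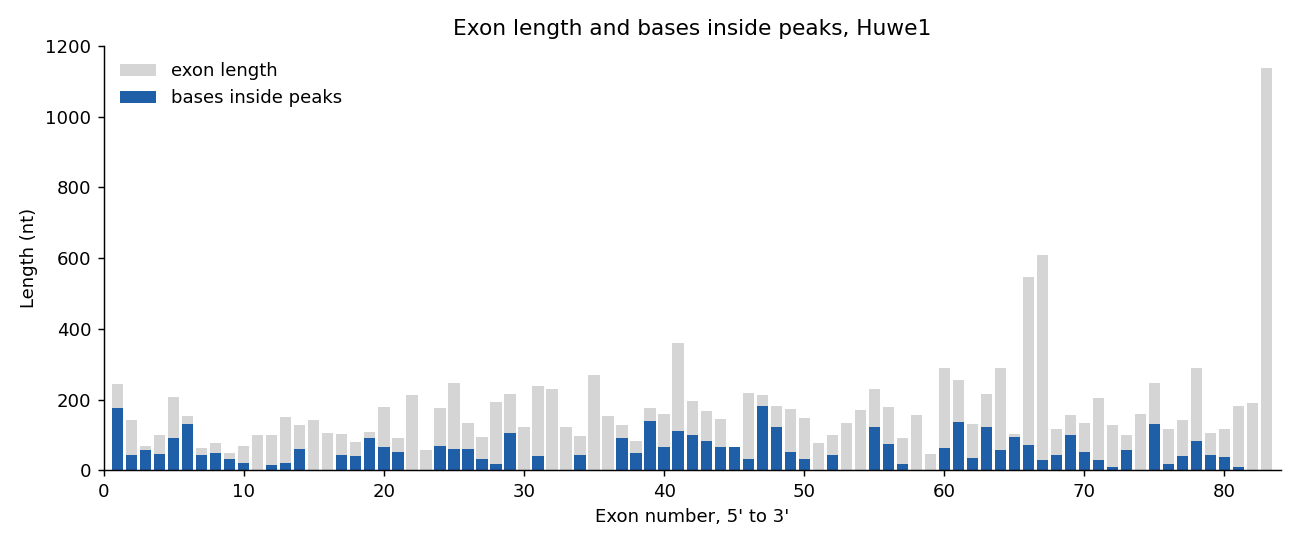
Length of each Huwe1 exon (grey bars, nt) and the number of its bases inside peaks (blue bars), by exon number from 5' to 3'. The last exon, at 1137 nt the longest, has 0 covered bases, and exons 66 and 67, of 547 and 610 nt, have 71 and 30.

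Within exons, the bases about 10 to 40 nt upstream of junctions were covered by peaks more often than those 50 to 150 nt upstream. The window from 20 to 24 nt upstream of the junction, where the exon junction complex is known to sit, was touched by a peak in 41 of the 82 exons that end in a junction (50.0%), and wholly covered in 37. Counting only peaks of at least 8-fold with p at most 0.001, which 39 of the members and 32.3% of all peaks reached, it was touched in 13 of 82 (15.9%). With all peaks counted, 25 of the other exons held a peak elsewhere and 16 held none. Counted base by base from the exon's 3' end, coverage was 14.6% at the last base, 34.1% at the fifth and 43.9% at the tenth. The highest value within 50 nt of the end was 48.8%, 24 nt upstream of the junction, where 40 of 82 exons were covered. It was a broad rise, with 46.3% at 22 nt and 45.1% at 30 nt, and it fell to 31.3% at 50 nt and 22.7% at 75 nt. Farther in it rose again, to 29.2% at 100 nt and 33.3% at 146 nt, without reaching the level near the junction. From the 5' end the curve was flatter: 26.8% at the first base, 40.2% at the second, 39.0% at 30 nt, 37.5% at 50 nt, 33.3% at 75 nt and 23.1% at 100 nt. Peak centres lay a median of 67 nt from the exon's 3' end, with quartiles of 28.5 and 129 nt, and a median of 64.5 nt from its 5' end. Exons are short, with a median of 149 nt, so a base can be near both ends at once.

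**Figure D3:**
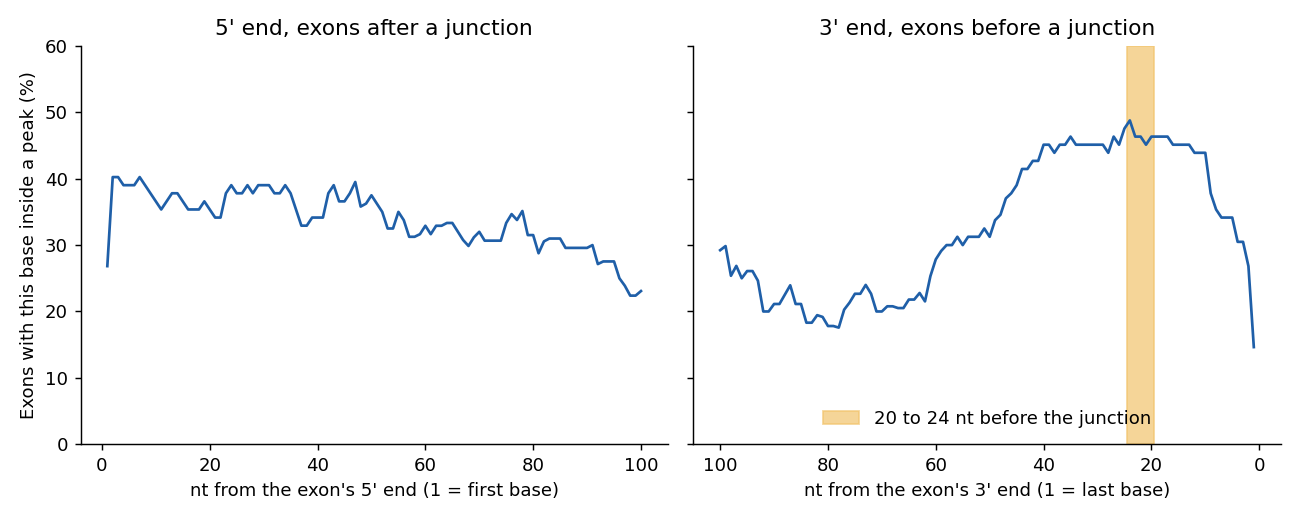
Share of Huwe1 exons with a given base inside a peak, by distance from the exon's 5' end (left, 82 exons that follow a junction) and from its 3' end (right, 82 exons that precede one); exons shorter than the distance are left out. At the 3' end the share rises from 14.6% at the last base to 43.9% at 10 nt. From there to 40 nt it stays between 43.9 and 48.8%, a plateau wider than the shaded window of 20 to 24 nt. At the 5' end it stays between 32.9 and 40.2% from the second base to nt 50.

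Long exons showed the ends and the middle apart. This split was chosen after the positions had been seen. In the 20 internal exons of at least 200 nt, 43.2% of the first 50 nt and 34.2% of the last 50 nt lay inside peaks, and 19.3% of the bases between. In the 8 internal exons of at least 250 nt the 3 values were 58.0, 29.8 and 9.59%, and in the 39 of at least 150 nt they were 37.6, 42.1 and 19.5%. The order of the first and last 50 nt thus turned with the length limit, while the share between was the lowest at each of the 3 limits. Peaks were not missing from the middle: it held at least 1 in 17 of the 20 exons of at least 200 nt, beside 13 for the first and 9 for the last 50 nt, and it is the longer stretch, with 3581 bases in all. Exon 66, of 547 nt, had peaks over its first 52 nt and over 19 nt at its 3' end, and none between them. Exon 67, of 610 nt, had a single peak over its first 30 nt, from 148354119 to 148354148, at 6.25-fold, and no peak at its 3' end. Exon 41, of 359 nt, had its highest peak in the last 61 nt, from 148326581 to 148326635, at 9.47-fold. An adjoining peak of 8.80-fold ran from there to the exon's last base. The remaining peak of exon 41 lay from 148326370 to 148326419 at 5.77-fold. Exon 64, of 289 nt, had 2 peaks close to the 4-fold lower limit of the list, at 4.03-fold and 4.07-fold, and none in its last 50 nt.

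**Figure D4:**
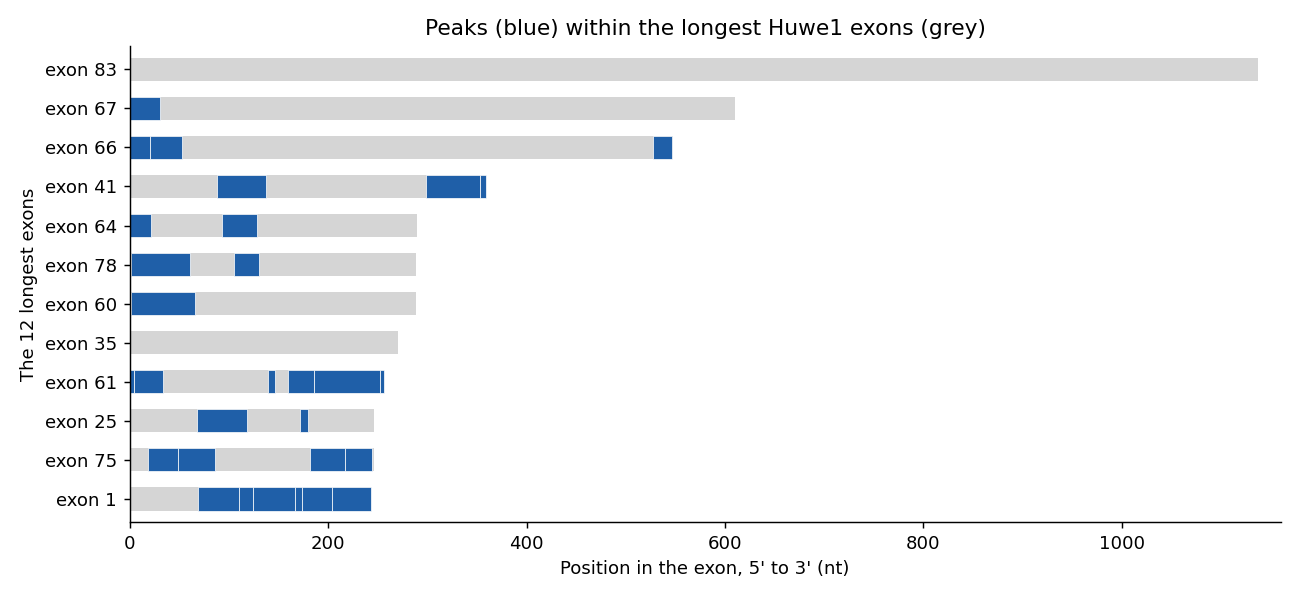
The 12 longest Huwe1 exons drawn to scale from their 5' to their 3' end (grey, nt), with the peaks in blue. In exons 66 and 67 the blue stretches lie at the ends, and exons 83 and 35, of 1137 and 270 nt, have none.

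Edges of peaks often fell on edges of exons. Of the 161 peaks, 20 began at the first base of an exon and 11 at the second, and 12 ended at the last base and 10 at the base before it. A further 12 ended 4 nt before the exon's end. Of these, the peaks in exons 13, 37 and 38 had no peak beyond them. Each of the others adjoined a very narrow peak, already counted above, that ran on to the exon's last base or the base before it. Peaks faced each other across junctions. At 22 junctions a peak reached to within 1 nt of the end of the upstream exon, and at 19 of these a peak also began within 1 nt of the start of the next exon. Peaks began that close to the start of the downstream exon at 33 of the 82 junctions. The 19 introns between such peaks ran from 77 to 7561 nt. With introns taken out and gaps of up to 2 nt closed, a step chosen after the positions had been seen, the peaks formed 84 blocks, of which 20 crossed a junction. The blocks across junctions had a median length of 86 nt, and those within an exon 36.5 nt. A block across a junction joins at least 2 peaks by construction, while many within an exon are 1 peak, so this difference was partly set in advance. The longest block, of 228 nt and 4 peaks, joined exons 47 and 48. No listed peak overlaps more than 1 exon, so a block across a junction appears in it as separate peaks.

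Fold changes on the 2 sides of a junction differed nearly as much as those of any pair of members. At the 19 junctions the downstream peak was higher in 10, lower in 8 and equal in 1, between exons 3 and 4, where both were 10.1-fold. The median absolute difference was 0.39 on the log2 scale, beside 0.42 over all pairs of members, and the largest was 1.03, between a peak of 12.8-fold at the end of exon 1 and a peak of 6.27-fold at the start of exon 2. Between the 57 pairs of peaks that adjoin each other within an exon, the median absolute difference was 0.22 and the largest 0.74, in exon 55. The downstream peak was higher in 31 of those pairs and lower in 26. Very narrow peaks were common at the edges: 17 of the 25 peaks of at most 5 nt lay within 1 nt of an exon end. Joining peaks within 50 nt gave 82 sites, 38 of them made of just 1 peak, and the median site was 49.5 nt wide.

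At least 8-fold with p at most 0.001, 39 of the 161 members (24.2%) in 24 exons passed, beside 32.3% of all peaks of the list. The members nearest to that threshold were at 7.93-fold and 8.07-fold. Neither p limit named here removed any listed peak, so fold change alone decided. The highest peak was a 20-nt stretch in exon 13, from 148291143 to 148291162, with a fold change of 18.96 and a −log10 p of 18.2. It spans the bases 5 to 24 nt upstream of the junction and was the sole member past 16-fold with p at most 1e-05, a level that 3.65% of all peaks reached. The second, of 15.0-fold, lay in exon 71 from 148357272 to 148357300, near the 5' side of the exon, 142 to 170 nt upstream of its end. The third, of 14.0-fold, covered 14 nt of exon 69 from 148355910 to 148355923. A peak of 6 nt near the start of exon 19, from 148296842 to 148296847, reached 13.5-fold. Exon 1 held a peak of 12.8-fold that ends at the exon's last base, from 148238073 to 148238112. The other members of the 10 highest were the 12.1-fold peak of exon 81, an 11.9-fold peak of 15 nt in exon 10, adjoining peaks of 10.9-fold and 11.4-fold in exon 14, and a 10.8-fold peak over the last 5 nt of exon 56. Of these 10 peaks, those in exons 13 and 1 touched the window of 20 to 24 nt. The other 8 lay outside it.

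The RNA just upstream of the junction is shown for the exons with the highest peaks and, as a contrast, for 2 exons that had no peak there: exon 67, the longest before the last, and exon 82, the next to last. Each line gives the last 50 nt of the exon, 5' to 3', with the bases 20 to 24 nt upstream of the junction in capitals. All of them are coding sequence, and exon 1 is left out because it is not. The letters were taken by exon number from the GENCODE transcript on GRCm38, plus strand, and not read at positions of the peak list.
exon 13: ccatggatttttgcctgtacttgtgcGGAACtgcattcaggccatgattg
exon 71: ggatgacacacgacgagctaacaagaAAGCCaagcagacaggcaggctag
exon 69: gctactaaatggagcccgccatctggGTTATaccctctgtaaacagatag
exon 19: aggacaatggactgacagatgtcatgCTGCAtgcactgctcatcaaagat
exon 81: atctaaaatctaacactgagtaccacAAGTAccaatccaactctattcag
exon 10: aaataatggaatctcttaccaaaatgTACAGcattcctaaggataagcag
exon 14: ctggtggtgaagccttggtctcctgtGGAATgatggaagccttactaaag
exon 56: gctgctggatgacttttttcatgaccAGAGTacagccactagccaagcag
exon 67: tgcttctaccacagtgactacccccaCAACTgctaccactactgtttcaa
exon 82: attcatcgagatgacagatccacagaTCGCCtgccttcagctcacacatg

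A peak touched the capital bases in exons 13, 14, 19, 56 and 69, and not in exons 10, 67, 71, 81 and 82. The 5 bases differ from exon to exon in both sets. Base composition overlapped too. Over the last 50 nt (or the whole exon where shorter), the share of G and C had a median of 50.0% (range 29.2 to 68%) in the 41 exons whose window was covered and 46% (range 34 to 58%) in the 41 whose window was not. The share of A and G had medians of 50.0 and 54% in the same order, with ranges of 36 to 68% and 36 to 84%. These are descriptions over exons of a single transcript and were not tested.

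None of the 5 peaks with the highest −log10 p was among the 10 highest by fold change. The first and second were both in exon 1: a peak from 148237994 to 148238035 with 63.0 at 6.97-fold, and one from 148238043 to 148238072 with 56.4 at 10.4-fold. The next were a peak over the last 82 nt of exon 47, from 148335574 to 148335655, with 55.8 at 8.18-fold, a peak in exon 29 from 148315064 to 148315124 with 48.9 at 5.31-fold, and the exon 45 peak with 46.6. Exon 1 held the longest unbroken stretch of cover within any exon. Its 6 peaks adjoin each other from 148237938, the first member in transcript order at 5.34-fold, to 148238112, and take up 175 of its 243 nt, ending at the junction. By share, exons 45 and 65 were covered more fully, at 98.5 and 92.2% beside 72.0% in exon 1. Exon 1 lies before the start codon, which is in a later exon: the coding sequence begins in exon 3. Over all members, −log10 p rose with width (Spearman rho 0.65) and with fold change (rho 0.39), while fold change and width were nearly unrelated (rho -0.02). The rhos describe 161 peaks of the same libraries. Wider peaks can hold more reads, but the reads cannot be counted here, so a part of read number in these rhos was not tested.

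Along the transcript, peaks were densest at the 5' end. Exons 1 to 17 held 43 peaks, 21.5 per kb of exon, and peaks covered 41.5% of their bases. Exons 18 to 34 held 25 peaks (9.62 per kb, 25.8% covered), exons 35 to 51 held 36 (12.3 per kb, 40.8%), exons 52 to 67 held 32 (9.04 per kb, 24.5%) and exons 68 to 83 held 25 (7.10 per kb, 18.6%). Without the long last exon the final set had 10.5 peaks per kb and 27.4% of its bases covered. Members past 8-fold, a level that 32.3% of all listed peaks reached, were unevenly placed, with adjoining peaks counted apart. They numbered 17 of 43 in exons 1 to 17, 1 of 25 in exons 18 to 34, 11 of 36 in exons 35 to 51, 4 of 32 in exons 52 to 67 and 6 of 25 in exons 68 to 83. The single one in exons 18 to 34 was the 13.5-fold peak of exon 19. Median fold changes in the 5 sets were 6.97, 5.50, 6.92, 5.98 and 5.84. Fold change and the order of peaks had a rho of -0.17, and −log10 p and order a rho of -0.07. Peaks of a transcript are not replicates, so no test was made of these differences.

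Huwe1 also hosts small RNAs in its introns. Intron 59, of 1891 nt between exons 59 and 60, holds the hairpins of Mirlet7f-2 and Mir98, members of the let-7 family, which is known for restraining the pluripotent program. Intron 16, of 2253 nt, holds Mir3113. Neither intron had a peak (0 in each), and neither did any other intron of the gene. The shift was fitted to place peak bases in exons, so this does not set these introns apart. Exons 58 and 59 upstream of the let-7 intron had none either. Exon 60 downstream had a single peak of 64 nt, from 148348690 to 148348753, with a fold change of 4.25. Intron 16 lies between exon 16, which had no peak, and exon 17, which had 2.

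Joining peaks of the same strand within 10 kb gives clusters, and exons 3 to 81 of Huwe1 form the cluster with the most peaks of the list at this distance, with 152. At 5 kb its largest cluster held 106 peaks and ranked 3, where the largest had 122. The 9 peaks of exons 1 and 2 are left out by the long intron that follows. The 4 next clusters, on the plus strand of chromosome 4 (126 peaks), the plus strand of chromosome 5 (124), the minus strand of chromosome 4 (118) and the plus strand of chromosome 1 (114), give the values beside it. The Huwe1 cluster had the lowest median, 6.22-fold, with quartiles of 5.26 and 7.80. The others had medians of 7.80, 11.98, 9.79 and 6.52. Its share of adjoining peaks, 51 pairs or 33.6% of its peaks, lay within the range of the other 4, from 26.2 to 41.1%, as did its median distance between sites, 664 nt, beside 508 to 1378 nt. Peak ranges overlapped widely. The clusters are single loci with no value per library, so the differences were not tested.

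**Figure D5:**
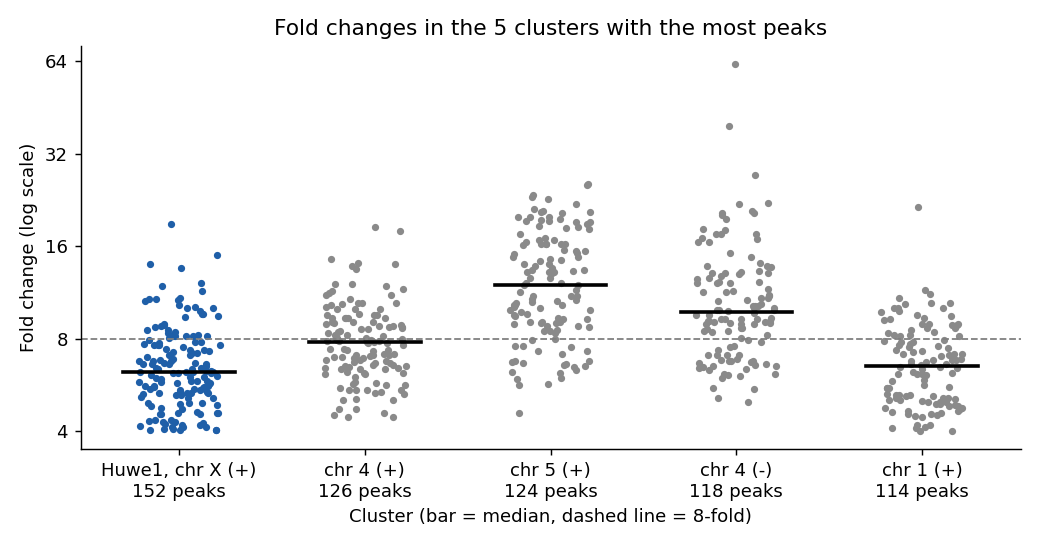
Fold change of each peak (points, log axis) in the 5 clusters with the most peaks when joined within 10 kb, Huwe1 in blue and the 4 others in grey, with the median as a bar and 8-fold as a dashed line. The Huwe1 median of 6.22 is the lowest of the 5, and its points overlap those of every other cluster.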

How the data were processed

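The list covers eCLIP of eIF4A3 with 2 input and 2 pull-down libraries. Build mm9, STAR 2.6.1b and cutadapt 1.18 are named, without roles, per the submitters' processing notes. The identity of the peak caller is not given in the sources used here, nor is its test or any pooling of replicates. Each peak's log2 fold change and −log10 p-value are the authors' deposited values, per the file headers. Starts and ends were read as both inside the peak. Fold changes are 2 to the power of the deposited log2 value.

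Exons came from the GENCODE M21 coding transcript of Huwe1 with the most exons, shifted by a single constant that maximised peak bases in exons. The text names the 10 highest peaks by fold change, the 5 by −log10 p, the first and last peak, the exons that hold them, those with the most peaks, the longest, and those without. Members, lists and the naming rule were chosen with earlier results of these data known. Other genes of the ubiquitin pathway were not analysed here, as the list has no gene names. On simulated peak sets drawn wholly inside these exons, the true shift lay within the range of the best-scoring shifts in 20 of 20. That checks the code and cannot show whether a constant shift holds between the builds. Alternatives changed thresholds, merging, overlap and exon sets. Software was scipy 1.17.1, pandas 2.3.3, numpy 2.4.6 and matplotlib 3.10.9 under Python 3.11.15.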

Additional observations from a re-analysis of the deposited data

How the results depend on the processing

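No paired analysis was possible because each peak has a single deposited value. Leaving out a replicate could not be done either. Merging adjoining peaks moved the number of peaks from 161 to 104. Of the 39 members past 8-fold, 1 passed 16-fold with p at most 1e-05. Counting only peaks past 8-fold moved the exons with a peak from 66 to 24 and the exons touched 20 to 24 nt upstream of the junction from 50.0 to 15.9% (13 of 82), with fewer peaks by construction. The window's share was 47.6 and 48.8% with the shift 1 nt lower or higher. The best shift was the same with all coding transcripts and with peaks past 8-fold; by number of peaks in exons, 5 neighbouring shifts tied, the best among them. All peaks stayed exonic under the 3 alternatives tried. Of these, the exons of all transcripts could not lower the share, and counting starts from 0 hardly could. The rho of fold change with order was -0.22 over sites and -0.20 without the first and last peak, and that of cover with exon length was 0.31 without the first and last exon, or 0.12 with the number of peaks per exon. At a gap of 5 kb the largest Huwe1 cluster held 106 peaks and ranked 3 in the list, where the largest had 122. The splits of long exons, at 150 and 250 nt beside 200 nt, and the edge distance of 4 nt were chosen after seeing the data. With 4 nt, 24 junctions had peaks at both edges, in place of 19. The depth behind each peak is unknown.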
